A study of Danio rerio with 6 samples.

Results

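The alpha-actinins and their partners at the Z-disc were examined in trunk and tail muscle of zebrafish larvae of the runzel line. They were taken as every probe set with the single platform symbol actn1, actn3b, ldb3a, ldb3b, pdlim7 or myoz1b. Each gene had 1 such probe set, so that 6 of the 15502 probe sets beside the manufacturer's controls were described, and all 6 passed the filter on dim signal. The array named 8793 genes in all by a single symbol. Mutants of the runzel line, which the series title ties to a titin mutation, were compared with wildtype siblings on 3 arrays each. Both groups were taken at 3 to 3.5 days after fertilization, given as 3.5 days in every sample title, with head, heart and gut dissected away. Each array held RNA of pooled muscle, and no transgene, drug or further allele is named for either group. The series text describes 3 clutches with mutants matched to siblings, but the labels do not say which arrays share a clutch, so p-values measure the spread between these arrays.

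The Z-disc is the border of the sarcomere, where actin filaments of opposite polarity are anchored and where the ends of titin molecules overlap. Alpha-actinin is a rod-shaped dimer that cross-links these actin filaments and also binds titin. Proteins with a PDZ domain and LIM domains, such as the products of the ldb3 genes (Cypher or ZASP in mammals) and pdlim7 (Enigma in mammals), bind alpha-actinin through the PDZ domain and other proteins through the LIM domains. Myozenins, known in mammals as calsarcins, bind alpha-actinin, filamin and the phosphatase calcineurin, and have neither PDZ nor LIM domains. In humans, mutations of LDB3, the orthologue of ldb3a and ldb3b, cause a myofibrillar myopathy. In RefSeq's gene order, ldb3b and myoz1b lie on the same chromosome with 2 protein-coding genes between them.

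The comparison asked whether transcripts of this Z-disc group differ in runzel muscle when the phenotype first becomes visible. The signals of ldb3b and actn3b were 1.22-fold and 1.19-fold higher in runzel on average, in 3 of 3 pairs of arrays with the same number, and the other 4 genes lay between 0.919 and 1.08 times the wildtype level. None of the 6 passed limma's test once p-values were adjusted (Benjamini-Hochberg) over all 9301 probe sets tested, where the share of all tested probe sets called was 0%. At an unadjusted p under 0.05 it was 1 of 6, ldb3b, beside 4.81% of all tested probe sets. With the array number as a block, 0 of 6 passed after adjustment, beside 1.19% of all tested probe sets, and 2 of 6, ldb3b and actn3b, lay at an unadjusted p under 0.05, both higher, beside 12.7% of all tested probe sets, and 6.73% that were higher. These were the only 2 of the 6 genes higher in all 3 pairs, which 18.1% of all tested probe sets were.

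All fold changes are on the scale of log2(signal + 50), which hardly moves probe sets this bright. The mean signal of the 6 lay at percentiles 91.4 (actn1) to 99.0 (pdlim7) of all probe sets. Brightness also depends on the probes, so these percentiles show that the genes were well measured and not the order of their transcript amounts. The tissue label was checked on markers. Of 18 fast skeletal muscle markers 14 were on the array and tested, 12 of them with a mean signal above percentile 98. Markers of other tissues were bright too, such as krt4 (epidermis), hbae3 (blood) and col1a1a (fibroblasts), at percentiles 99.9, 99.9 and 99.5. The gut and liver markers apoa4b.1 and tfa lay at percentiles 97.7 and 97.5. The markers thus show muscle RNA, and not that the samples were free of other tissues. Of 8 heart markers 4 were on the array, of which 3 were dim and untested (tnnt2a, cmlc1 and myl7, at percentiles 19.5, 16.7 and 2.34). The remaining gene of that list, myh7, was brighter, at percentile 81.4. Its mean signal was 1962 ± 297 in mutants and 2461 ± 473 in siblings (SD, n = 3), with overlapping groups. Whether its signal came from heart tissue was not tested.

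**Figure D1:**
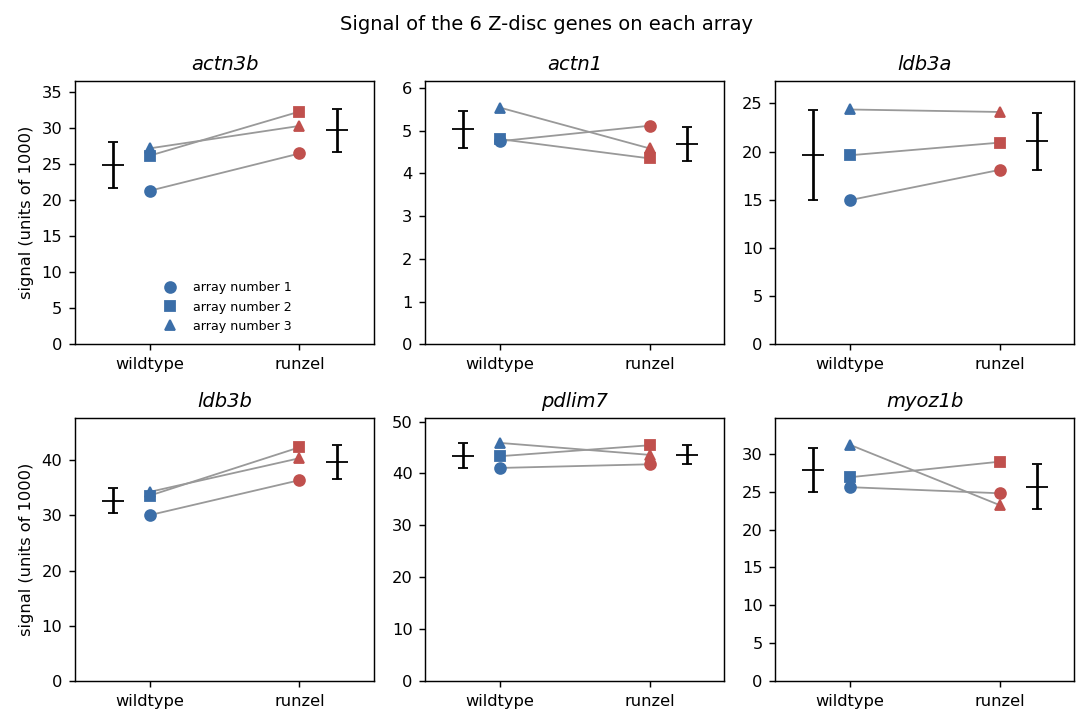
Deposited signal in units of 1000 (y axis, starting at 0) of each of the 6 genes on the 3 wildtype and 3 runzel arrays, with grey lines joining arrays of the same number and black bars giving mean ± SD (n = 3). The groups are apart for ldb3b alone, and runzel is above wildtype in all 3 pairs for ldb3b and actn3b.

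The sarcomeric alpha-actinin gene actn3b encodes the isoform of fast muscle fibres. Its signal was 26512.6, 32336.1 and 30344 on the runzel arrays 1, 2 and 3, and 21336.8, 26216.8 and 27230 on the wildtype arrays 1, 2 and 3. Each runzel array lay above the wildtype array of its number, but runzel array 1 lay below wildtype array 3, so the groups overlapped. The means were 29731 ± 2960 and 24928 ± 3151 (SD, n = 3), a log2 difference of 0.26 with a 95% interval of -0.017 to 0.53, or 0.988-fold to 1.44-fold. It did not pass in limma (adjusted p = 0.977, and 0.173 with the block), and the exact permutation p was 0.2. Without wildtype array 1 the difference was 0.15.

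The other alpha-actinin gene of the 6, actn1, encodes the non-muscle isoform of adhesion sites and stress fibres. Its signal was 5115.9, 4351.5 and 4585.6 in runzel and 4754.7, 4802.5 and 5540.4 in wildtype siblings, in the order of the array numbers. Array 1 was higher in runzel and arrays 2 and 3 were lower. The means of 4684 ± 392 and 5033 ± 440 (SD, n = 3) gave a log2 difference of -0.10 with an interval of -0.41 to 0.21, and actn1 did not pass (limma adjusted p = 0.995, exact permutation p = 0.4). The interval allows levels from 0.752 to 1.15 times that of wildtype siblings.

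Markers of smooth muscle, in which actn1 is also expressed in mammals, were lower in runzel. Of 6 such markers 2 were on the array, and acta2 and tagln together read 4348 to 7672 in runzel and 9508 to 12523 in wildtype siblings, without overlap. Both fell in limma with the block (log2 -0.99 and -0.89, adjusted p = 0.00435 and 0.0113). Of all tested probe sets, 0.473% were called lower in that fit, and 10.5% had groups that did not overlap in either direction. Both markers were listed with earlier results of these data known, so their fall is only a description. Neither passed without the block (adjusted p = 0.649 and 0.810), and with the number as a random block, at an estimated correlation, acta2 passed and tagln did not (adjusted p = 0.0400 and 0.0663). Their part in the actn1 values was not tested. In such bulk samples fewer cells of a type and less RNA per cell cannot be told apart.

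Whether actn3b and actn1 responded differently was tested on their log2 ratio within each array. A scaling factor common to a whole array nearly cancels in this ratio, but scaling that depends on brightness does not. The ratio of actn3b to actn1 was 2.36, 2.88 and 2.71 in runzel and 2.15, 2.44 and 2.29 in wildtype siblings. It was higher in 3 of 3 pairs, by 0.21, 0.44 and 0.43, although runzel array 1 lay below wildtype array 2. With 1 array left out the mean difference ran from 0.25 to 0.50, and after quantile normalization it was 0.42. Over all arrays the mean difference of 0.36 ± 0.131 (SD over 3 pairs) had an exact permutation p of 0.2 (adjusted p = 0.4 over the 2 ratios compared), where 0.1 is the smallest possible, and an exact sign-flip p of 0.25, the smallest possible over 3 pairs. A difference in response between actn3b and actn1 was thus not shown at this number of arrays.

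**Figure D2:**
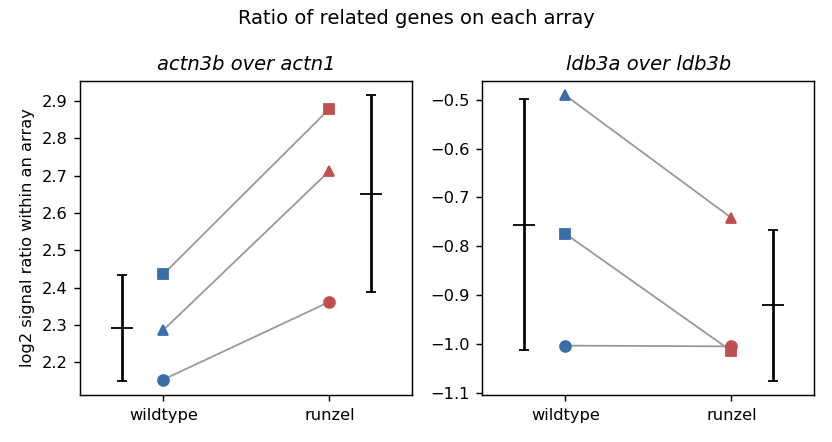
Log2 ratio of signals within an array (y axis, cut to the range of the data) for actn3b over actn1 and ldb3a over ldb3b, with lines joining arrays of the same number and black bars giving mean ± SD (n = 3). The first ratio is higher in runzel in all 3 pairs, by 0.21 to 0.44, and the second is lower in 2 pairs and nearly level in the other (-0.00155).

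The ldb3 genes are a zebrafish duplicate pair whose products bind alpha-actinin at the Z-disc. Signal of ldb3b was 36388.1, 42345.7 and 40367.3 in runzel and 30059.6, 33597.3 and 34269.4 in wildtype siblings. Every runzel array lay above every wildtype array, which was true of 1 of the 6 genes, while 10.5% of all tested probe sets had groups that did not overlap in either direction and 5.89% had runzel higher. The means were 39700.4 ± 3034 and 32642 ± 2262 (SD, n = 3), and the log2 difference was 0.28 with an interval of 0.069 to 0.49, or 1.05-fold to 1.41-fold. Within pairs the differences were 0.28, 0.33 and 0.24, the smallest SD over pairs of the 6 genes (0.0490). The exact permutation p was 0.1, the smallest possible. In limma the adjusted p was 0.935, and 0.0939 with the block, so that ldb3b did not pass in either fit.

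Signal of ldb3a ran in the same order of array numbers in both groups. It was 18102, 20930.9 and 24113.4 in runzel and 14965.5, 19619.3 and 24370 in wildtype siblings. The arrays numbered 1 were lowest and those numbered 3 highest in both groups, and the means of the pairs spanned 0.56 on the log2 scale, against 0.12 between the groups. Expressed as means, it read 21049 ± 3007 in mutants and 19652 ± 4702 in siblings (SD, n = 3), with an interval of -0.28 to 0.52 for the log2 difference (limma adjusted p = 0.996, and 0.622 with the block, exact permutation p = 0.7). Without wildtype array 1 the difference turned to -0.065. For ldb3a the groups were not separated, with levels from 0.822 to 1.43 times wildtype inside the interval.

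The log2 ratio of ldb3a to ldb3b was -1.005, -1.015 and -0.74 in runzel and -1.004, -0.77 and -0.49 in wildtype siblings. The pair differences of -0.00155, -0.24 and -0.25 were all below 0, although the first was close to it. The mean of -0.16 ± 0.141 (SD over 3 pairs) did not pass (exact permutation p = 0.5, adjusted p = 0.5, exact sign-flip p = 0.25), so the duplicates were not shown to differ in response. It was -0.032 without wildtype array 3, -0.29 without wildtype array 1, -0.25 without runzel array 3 and -0.20 after quantile normalization.

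The product of pdlim7 is a broadly expressed PDZ-LIM protein that also binds actin-associated proteins. Its signal was 41755.2, 45420.9 and 43571.8 in runzel and 41049.3, 43315 and 45873.1 in wildtype siblings. The groups overlapped over nearly their whole range. The means were 43583 ± 1833 and 43413 ± 2413 (SD, n = 3), a log2 difference of 0.0063 with an interval of -0.17 to 0.19, the narrowest of the 6 genes (limma adjusted p = 0.999, exact permutation p = 0.9). The interval bounds a change to between 0.886-fold and 1.14-fold. The sign of a difference this small was not stable, as it was -0.048 after median centring.

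Signal of myoz1b, the myozenin gene on the array, was 24801.8, 28978 and 23236.7 in runzel and 25608, 26919.9 and 31198.8 in wildtype siblings. Runzel was slightly lower in pair 1, higher in pair 2 and lower in pair 3, with log2 differences of -0.046, 0.11 and -0.42, so that pair 3 carried most of the difference. The means were 25672 ± 2968 and 27909 ± 2924 (SD, n = 3), a log2 difference of -0.12 with an interval of -0.38 to 0.14 (limma adjusted p = 0.977, exact permutation p = 0.4). With pair 3 left out and the block kept, the difference was 0.030.

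The 6 genes also differed in how far signal moved with the array number. Array 1 was the lowest of its group in both groups for 4 of the 6 genes (actn3b, ldb3a, ldb3b and pdlim7), as it was for 18.5% of all tested probe sets. The means of the pairs spanned 0.11 (pdlim7) to 0.56 (ldb3a) on the log2 scale. For ldb3b alone the difference between groups, 0.28, was larger than this span, 0.19. These are unlike measures, as a span over the means of the pairs tends to be wider than a difference between the groups. The share of all tested probe sets with this trait was not counted.

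The genes whose log2 signals ran closest to each member over the 6 arrays, in which arrays of the same number share deviations, are given as a description. For actn3b these were nova2, dmd and aimp2 (Pearson's r = 0.998, 0.992 and 0.991). The gene dmd encodes dystrophin, which links the cytoskeleton to the muscle membrane. Its probe set was 0.66 higher in runzel on the log2 scale (limma adjusted p = 0.0516 with the block, 0.977 without it and 0.194 with a random block). For ldb3b they were ubb, which encodes ubiquitin, slc16a9a and ube2d3 (r = 0.983, 0.979 and 0.975). Of these slc16a9a, a monocarboxylate transporter family gene, rose by 1.38 in limma with the block (adjusted p = 0.00514, 0.814 without the block and 0.0559 with a random block). The log2 differences of ubb and ube2d3 were 0.22 and 0.18 and did not pass. For ldb3a they were suco, tent5c and zc3h15 (r = 0.991, 0.989 and 0.987), for pdlim7 tmem38a, gars1 and nsg2 (r = 0.991, 0.98 and 0.973), for myoz1b rpl13, ubtfl and ccdc22 (r = 0.996, 0.975 and 0.969), and for actn1 tmem42a, kmt5aa and sugt1 (r = 0.989, 0.961 and 0.958). None of these 12 genes had an adjusted p under 0.05 with the block. All genes of closest pattern were picked by r among the tested named probe sets, so high values of r over 6 arrays were to be expected. A difference between the groups also enters r, so the differences of dmd and slc16a9a are no separate evidence about the members. Between members, actn3b and ldb3b ran closest (r = 0.959).

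Other genes of the Z-disc were taken from a list of 56, of which 16 were on the array and 13 tested. With the block 1 of 13 rose, 0 fell and 12 did not pass, beside 0.72% of all tested probe sets called higher and 0.473% called lower. In limma 0 of 13 passed without the block, with the number as a random block at an estimated correlation, or with the block and no intensity trend. The median log2 difference of the 13 was 0.0097, beside 0.00268 over the 6136 tested genes. The gene that rose was ttn.2, which encodes titin, at its brightest probe set (log2 0.92, limma adjusted p = 0.00763 with the block, 0.977 without it and 0.201 with an estimated correlation). This probe set was higher in 3 of 3 pairs, but its groups overlapped (exact permutation p = 0.2). A second bright probe set of ttn.2 was at 0.52 and did not pass (limma adjusted p = 0.167 with the block). Further probe sets of ttn.2 were dim and untested, at percentiles 7.51 and 0.535.

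The PDZ-LIM genes pdlim1 and pdlim5b were at -0.17 and -0.18 on the log2 scale and did not pass. A second tested probe set of pdlim1 was at -0.043 and did not pass either. For pdlim5b, signal was 1339.8, 1613.8 and 1431.2 in runzel and 1552.2, 1715.7 and 1704.2 in wildtype siblings. It was thus lower in each of 3 pairs with overlapping groups (limma adjusted p = 0.626 with the block). The largest other values below 0 were those of fhl1b, a LIM-only protein gene (-0.61, adjusted p = 0.0969 with the block), lasp1, which encodes an actin-binding LIM protein (-0.19), and csrp1a, which encodes a LIM protein that binds alpha-actinin in other vertebrates (-0.18). A second, dimmer tested probe set was at -0.072 for lasp1 and at 0.027, on the other side of 0, for csrp1a. The signal of fhl1b was 889.1, 752.8 and 693.7 in runzel and 1329.7, 1314 and 1013.6 in wildtype siblings. All runzel arrays lay below all wildtype arrays (exact permutation p = 0.1), beside 10.5% of all tested probe sets whose groups did not overlap in either direction. The same was true of lasp1 at its brighter probe set (exact permutation p = 0.1), whereas the groups overlapped at its second probe set. The largest values above 0 beside ttn.2 were those of mypn, whose product myopalladin binds alpha-actinin and nebulin, lmcd1, a LIM protein gene, and ppp3cca, which encodes a catalytic subunit of calcineurin. They were at 0.20, 0.20 and 0.19 and did not pass.

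**Figure D3:**
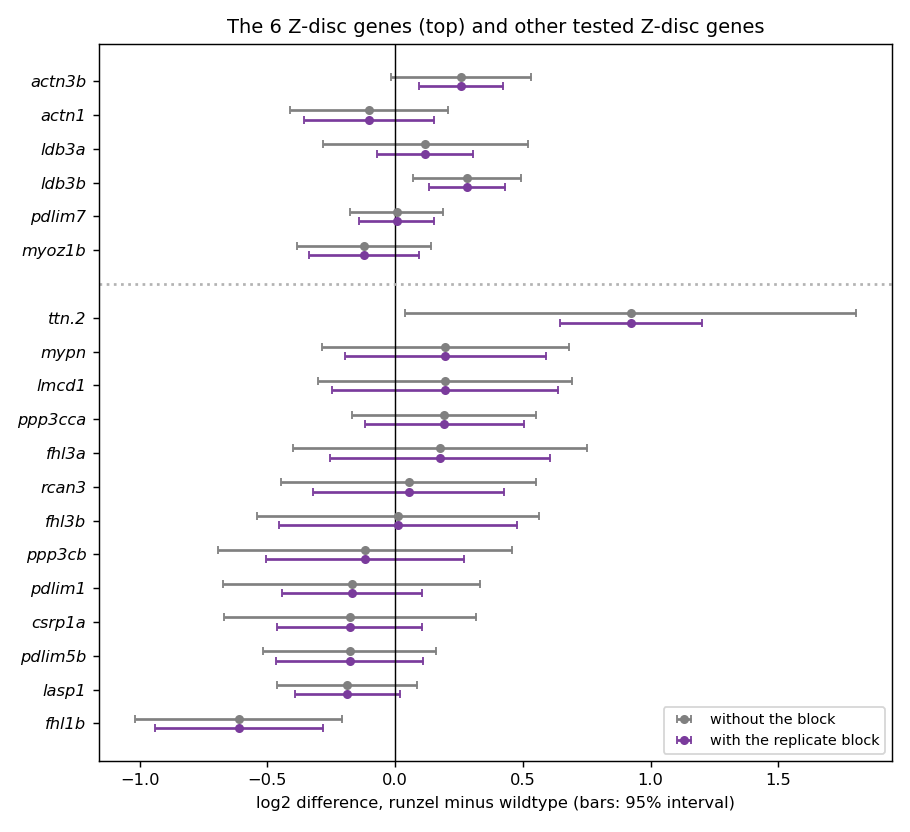
Log2 difference, runzel minus wildtype siblings (x axis), with the 95% interval from limma without the block (grey) and with it (purple), for the 6 genes above the dotted line and the 13 other tested Z-disc genes below it. The interval of ldb3b lies above 0 in both fits and that of actn3b in the fit with the block, and the intervals are not adjusted for the number of probe sets. The interval of fhl1b lies below 0 and that of ttn.2 above 0 in both fits.

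How the arrays were scaled moved the values of the brightest probe sets. The tested probe sets had a median log2 difference of 0.00618 as deposited, whereas the 5% brightest probe sets, 776 in all, had a median of -0.082, so ldb3b and actn3b were higher on arrays on which bright probe sets were on the whole slightly lower. Quantile normalization brought that median to -0.0078. It raised the differences of ldb3b to 0.39 and of actn3b to 0.33, neither of which passed without the block (limma adjusted p = 0.702 and 0.983). In an alternative chosen after seeing the data, quantile normalization together with the block, both passed as higher (limma adjusted p = 0.0101 and 0.0377), 2 of 6 beside 1.11% of all tested probe sets. Median centring with the block gave 0.23 and 0.20 and neither passed (limma adjusted p = 0.174 and 0.259).

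**Figure D4:**
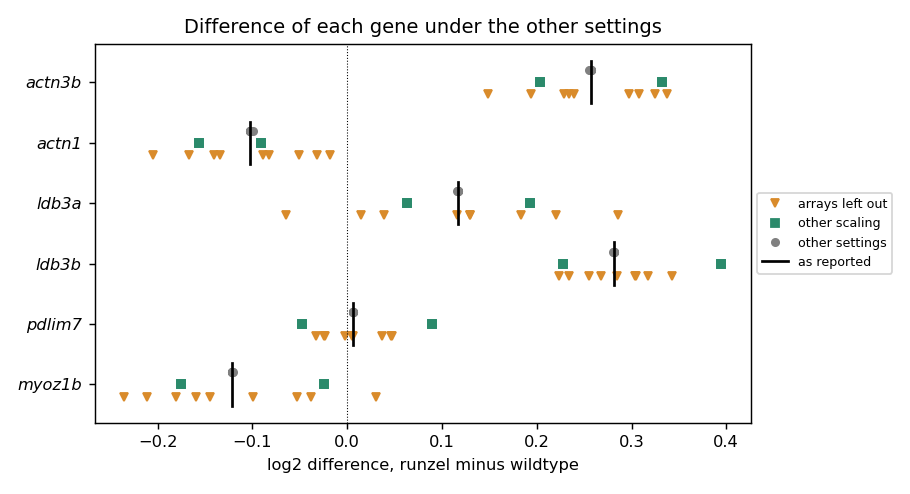
Log2 difference of each gene, runzel minus wildtype siblings (x axis), as reported (black bar) and under the alternatives, which left out arrays (orange), scaled the arrays otherwise (green) or changed another setting (grey). Values of actn3b (0.15 to 0.34) and ldb3b (0.22 to 0.39) stay above 0 and those of actn1 (-0.21 to -0.018) below 0 in these alternatives, and those of ldb3a, pdlim7 and myoz1b cross 0.

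Across the whole experiment, median signals ran from 598.8 to 668.1, and arrays correlated at 0.951 to 0.975. The 3′ to 5′ ratio of the actin control, a common reading of RNA integrity, was 2.03 to 2.78 in runzel and 1.37 to 1.74 in wildtype siblings, and that of GAPDH was 1.46 to 1.54 and 1.53 to 1.60. The actin ratios were higher in runzel without overlap (exact permutation p = 0.1), and the GAPDH ratios were slightly lower with overlap (exact permutation p = 0.2). The actin control is named for acta1, and the related gene acta1a was itself lower in runzel, as given below. The part of both ratios in the values of the 6 genes was not tested. The marker lists were chosen with earlier results of these data known, so counts of their members are only a description. In limma with the block, 0.473% of all tested probe sets were called lower and 0.72% higher. In that fit, members of the marker lists were called as follows. Of 15 tested epidermis markers 6 fell, and their summed signal, over 16 on the array, was 319032 to 376178 in runzel and 384303 to 423159 in wildtype siblings. Of the fast muscle markers 1 of 14 fell, acta1a, with sums of 991526 to 1107830 and 1070400 to 1270830. Of these 14 markers 11 were below 0 and 3 above, with myod1 the highest (log2 0.89, limma adjusted p = 0.0918 with the block). Of fibroblast and tendon markers 1 of 5 rose, fn1b (log2 0.80), while the other 4 were below 0. The summed signal of that list was 157197 to 176109 in runzel and 187694 to 196518 in wildtype siblings. Of endothelium markers 2 of 4 fell, aqp1a.1 and klf2a. Of the others on that list, kdrl was at -0.16 and tie1 at 0.23 on the log2 scale, and neither passed. All runzel arrays lay above all wildtype arrays for tie1. Of blood markers 1 of 6 fell and of gut and liver markers 1 of 5 fell. All 5 tested gut and liver markers were below 0. Their sums, over 6 on the array, were 36618 to 47152 in runzel and 51388 to 60380 in wildtype siblings. With an estimated correlation (random block) the calls that were left were 2 of 15 epidermis markers, krt94 and agr1 (adjusted p = 0.0149 and 0.0277), acta1a (adjusted p = 0.0496) and acta2, and there were none in these lists without the block or with the block and no intensity trend. With the block, none of 5 neural, 2 notochord and cartilage, 1 slow muscle and 1 heart marker passed. The slow muscle marker, smyhc1, was at 0.33 on the log2 scale and higher in 3 of 3 pairs, with overlapping groups (limma adjusted p = 0.218 with the block). The part of these marker shifts in the values of the 6 genes was not tested.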

How the data were processed

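Signal was measured on 6 Affymetrix Zebrafish Genome Arrays, 3 per group. Per the labels, arrays were read on a GeneChip Scanner 3000 and quantified with GeneChip Operating Software 1.2. The deposited values are linear signal intensity, 1 per probe set and array. The steps by which probes were summarised and arrays scaled are not given in the sources used here. As the 2% trimmed means were nearly equal (1500.42 to 1500.46), the table had been scaled, and it was not rescaled.

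Of 15617 probe sets 115 controls were left out. Signal was analysed as log2(signal + 50), and probe sets under the 40th percentile of the mean, a level of 8.90, were dropped, which left 9301. The test was that of limma 3.58.1 under R 4.3.3 (lmFit, eBayes with an intensity trend, Benjamini-Hochberg over those 9301, threshold 0.05, two-sided). The reference fit had no block. Deviations from the group means correlated at 0.551, 0.389 and 0.526 between arrays of the same number and at -0.401 to -0.152 between the others. As deviations cancel out within a group, the negative values largely follow from the positive ones and are no separate evidence. On the positive values, the numbers were taken to pair the arrays. This rests on the values alone. The fit with the number as a block was therefore set beside it. The exact permutation test over the 10 splits cannot go below 0.1 and the exact sign-flip test over 3 pairs not below 0.25. Intervals come from limma and are unadjusted. The fit was tested on simulated data. The number of arrays limits the precision.

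Symbols come from the platform annotation, and names and gene order from RefSeq. The brightest tested probe set stood for each listed gene. Named were the 6 genes, list genes called in either fit, tested actinin, PDZ-LIM and myozenin genes, the 3 largest other differences per direction, the 3 genes of closest pattern per member (clone names passed over) and markers. Members and lists were chosen with earlier results of these data known.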

Additional observations from a re-analysis of the deposited data

How the results depend on the processing

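The calls depend on the replicate block. Without it 0 of 9301 probe sets passed in limma, with 447 at an unadjusted p under 0.05. With the replicate block 111 passed, with a random replicate block 19, with the replicate block and no intensity trend 3, with the block and quantile normalization 103, and with the block and median centring 93; with 1 array left out and no block the count was 0 or 1, and with the block it was 41, 32 and 165 without pair 1, 2 and 3. Of the 6 genes, 0 passed in 20 of 21 alternatives and 2 with quantile normalization and the block, where actn3b was at 0.33 and ldb3b at 0.39. The Z-disc list had 1 gene called with the replicate block, as with either scaling and the block, 0 with a random replicate block or with the block and no intensity trend, and 0 to 1 with arrays left out. Its median moved from 0.0097 to -0.18 with the filter at the 60th percentile, where fewer genes were tested. Signs turned for ldb3a without wildtype replicate 1 (range with arrays left out -0.065 to 0.29), for myoz1b without pair 3 (range -0.24 to 0.030), and for pdlim7 with arrays left out (range -0.033 to 0.047, with -0.024 without runzel replicate 2, and with the block -0.0029 without pair 1 and -0.025 without pair 2) and at -0.048 under median centring with and without the block. The cause was not tested. No sign turned for actn1, actn3b, ldb3b or either ratio in the alternatives run.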

Other observations

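Among the other Z-disc genes on the array, 3 fell under the filter and were not tested in limma, and they were described after their values were seen. The alpha-actinin gene actn2b, whose mammalian orthologue is the isoform of all striated muscle, read 418.7, 408.4 and 508.3 in runzel and 203, 337.6 and 341 in wildtype siblings. All runzel arrays lay above all wildtype arrays (log2 difference 0.55, exact permutation p = 0.1, the smallest possible, higher in 3 of 3 pairs). Of all tested probe sets, 10.5% had groups that did not overlap in either direction, and 18.1% were higher in all 3 pairs. These shares cover brighter probe sets that passed the filter, and those among dim probe sets like these 3 were not counted. The small heat shock protein gene cryaba, which encodes an alphaB-crystallin that binds desmin filaments in mammals, was dim at 70.9, 62.9 and 21.2 in runzel and 130, 229.6 and 145.7 in wildtype siblings. Its groups did not overlap either (exact permutation p = 0.1), beside the same 10.5% of all tested probe sets. The calcineurin regulator gene rcan2 was at -0.36 on the log2 scale with overlapping groups (exact permutation p = 0.3).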
